A study of Rattus norvegicus with 100 samples.

Results

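The pituitary glands of immature female rats were profiled 24 and 48 h after the start of a uterotrophic assay with ethinyl estradiol (EE), a synthetic estrogen. The 12 arrays described here are the pituitary arrays of those times, taken by tissue, treatment and time in the sample titles, out of 100 arrays in the series. They form 4 groups of 3: control at 24 h (arrays 38, 40 and 42), EE at 24 h (arrays 43, 44 and 46), control at 48 h (arrays 61, 64 and 66) and EE at 48 h (arrays 68, 69 and 71). Each time had its own controls. All animals were immature females per the labels. The labels used here give no exact age, strain, dose, route or vehicle. The other pituitary arrays (4, 8 and 72 h) and 20 uterus arrays of 24 and 48 h served for comparison. Total RNA was hybridised to an Affymetrix rat array, and the deposited values are linear intensities.

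The anterior pituitary holds gonadotrophs, which make luteinizing hormone and follicle-stimulating hormone in response to gonadotropin-releasing hormone (GnRH) from the hypothalamus. It also holds lactotrophs, somatotrophs, thyrotrophs and corticotrophs, named for the hormones they secrete. Estrogen acts on the gland directly through its receptor and indirectly through the hypothalamus, and closes the feedback loop by which ovarian hormones restrain gonadotropin secretion. In the rat it is also known as a mitogen for pituitary cells.

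The labelled tissue was checked against its hormone genes. Growth hormone (Gh1), prolactin (Prl), the common glycoprotein hormone subunit (Cga), thyrotropin beta (Tshb) and luteinizing hormone beta (Lhb) were among the brightest genes, with Prl between 4271 and 6198 and Gh1 between 5044 and 6845 on the 12 arrays. The probe set named for Pomc, the corticotroph and melanotroph precursor, had a value on 1 of the 12 arrays, so that lineage was seen through Tbx19, Pcsk2 and Neurod1 and not through its hormone. The neural lobe hormones Avp and Oxt had no value on any pituitary array. Of the probe set values of each array, 36.3 to 40.2% were blank, the median intensity lay between 103 and 109, and no pair of arrays was identical. EE and control arrays did not separate on blank share, median intensity or the 3′ to 5′ signal of Actb and Gapdh. The lowest exact two-sided permutation p was 0.15 over both times, against a smallest possible 0.005, and the lowest adjusted p was 0.768. Because the glands were measured whole, fewer cells of a type and less RNA per cell cannot be told apart.

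Few pituitary genes passed the test of EE against control at 24 and 48 h, and the largest changes among them were falls. Over both times, 47 of 6634 tested genes (0.708%) differed between EE and control, 26 higher (0.392%) and 21 lower (0.317%). On the offset scale defined below, only Fshb, Plagl1 and Gnrhr of these 47 changed by more than 2-fold, all of them downward. The 26 that rose did so by at most 0.64 on that log2 scale and included some genes of cell division. S100g, a calcium-binding protein gene, could not be tested because no control array carried a value, and all EE arrays did. Each difference here is EE minus control on the log2(intensity + 30.4) scale, averaged over both times, with ± as its standard error. A gene was called at an adjusted p under 0.05 (limma, variances pooled over the 30 pituitary arrays, Benjamini-Hochberg over all genes tested). The offset understates the change of dim genes, so folds and the order of sizes hold for this scale only. Without an offset Adora2b, a dim called rise, stood at 0.71, against 0.45 with it. Without adjustment, 676 genes had a p under 0.05. The labels do not say whether arrays of a group are different animals, so p-values measure the spread between these samples. Centring each array on its median turned the split of 26 higher and 21 lower into 31 and 16, and quantile normalization into 40 and 18.

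The largest called fall was that of Fshb, and Gnrhr of the same cells fell as well. Fshb, which encodes the beta subunit of follicle-stimulating hormone, read 2455, 1905 and 2838 in the controls and 896, 527 and 777 with EE at 24 h. At 48 h Fshb read 2918, 1673 and 1694 in the controls and 829, 726 and 459 with EE. The highest EE array therefore lay below the lowest control array at each time, by a wide margin. The Fshb controls of the other times were all lower than those of 24 and 48 h. They read 181 to 1280 at 4 h, 678 to 1294 at 8 h and 347 to 977 at 72 h. The EE readings of 24 and 48 h lay inside the control range of 4 h. Fshb fell by 1.64 ± 0.30 (3.11-fold, adjusted p = 0.00469), and its other probe set fell by 1.45. Gnrhr, the receptor through which GnRH drives both gonadotropins, read 725, 811 and 794 in the controls and 477, 386 and 385 with EE at 24 h. At 48 h Gnrhr read 888, 831 and 818 in the controls and 365, 366 and 309 with EE. The ranges lay far apart at both times, with little spread inside any group. Gnrhr fell by 1.04 ± 0.12 (2.06-fold, adjusted p = 2.64e-05), and its second probe set fell by 1.29.

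The other subunits of the gonadotropins did not pass the test. Lhb, the beta subunit of luteinizing hormone, read 3319, 2526 and 2925 in the controls and 3658, 2239 and 2073 with EE at 24 h. At 48 h Lhb read 2754, 2669 and 2833 in the controls and 2395, 2187 and 2092 with EE. The Lhb groups overlapped at 24 h and were apart at 48 h, with a difference of −0.24 ± 0.12 (adjusted p = 0.503). Cga, the alpha subunit shared with thyrotropin, stood at −0.10 ± 0.08 (adjusted p = 0.734), near the top of the intensity scale. Whether differences are compressed there was not tested. Of the 8 tested genes on a gonadotroph marker list, 2 fell (Fshb and Gnrhr), 1 rose (Gata2) and 5 did not pass. Of all tested genes, 0.317% were called lower and 0.392% higher. The median of the list was −0.13, against −0.00 over all tested genes. Of the 8 genes 5 were negative at both times, compared with 28.1% of all tested genes. The summed intensity of the 8 genes ran from 11320 to 12520 in the controls and 8194 to 11200 with EE at 24 h, and from 11260 to 13060 and 8033 to 9514 at 48 h. Without Fshb and Gnrhr the sum of the other 6 ran from 8603 to 8889 against 7281 to 9824 at 24 h, so the groups then overlapped. At 48 h it ran from 8753 to 9555 against 7264 to 8319 and did not overlap. Most of this linear sum came from Cga and Lhb, so it mainly restates those genes and says little of the others.

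Gata2, a transcription factor of gonadotrophs and thyrotrophs, went the other way from Fshb and Gnrhr. It read 147, 139 and 146 in the controls and 261, 194 and 243 with EE at 24 h. At 48 h it read 202, 149 and 163 in the controls and 203, 180 and 207 with EE. The rise of 0.38 ± 0.08 (adjusted p = 0.0145) thus came with clear separation at 24 h (0.58 ± 0.11) and overlap at 48 h (0.18 ± 0.11). The call was lost without control array 64, EE array 43 or EE array 46. It was also lost in a fit of the 12 arrays with a single EE term and time as a block.

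**Figure D1:**
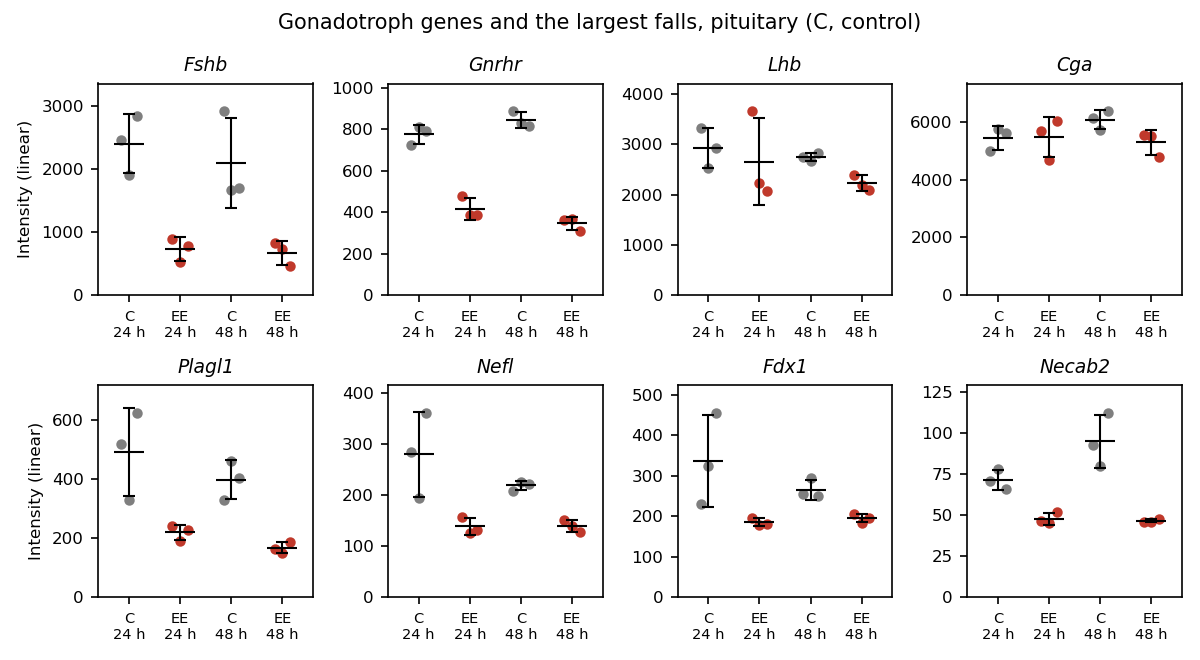
Linear intensity (y axis) of 8 genes on the 12 pituitary arrays by group (x axis: control, C, grey; EE, red, at 24 and 48 h); points are arrays, and black marks are the mean and SD of 3 arrays. Fshb, Gnrhr, Plagl1, Nefl, Fdx1 and Necab2 show each EE array below each control array of its time, whereas Lhb overlaps at 24 h and Cga stays between 4690 and 6379.

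Plagl1, an imprinted zinc finger transcription factor that restrains cell proliferation, fell about as far as Gnrhr. It read 520, 330 and 624 in the controls and 242, 190 and 226 with EE at 24 h. At 48 h Plagl1 read 330, 460 and 404 in the controls and 163, 151 and 187 with EE. The controls were more scattered than the EE arrays, yet the ranges stayed apart at both times. Plagl1 fell by 1.07 ± 0.14 (2.09-fold, adjusted p = 7.9e-05). Fdx1, the mitochondrial ferredoxin that hands electrons to steroid-forming cytochromes, read 230, 325 and 455 in the controls and 196, 179 and 181 with EE at 24 h. At 48 h Fdx1 read 254, 294 and 249 in the controls and 205, 184 and 196 with EE, so its EE values were nearly the same at both times. Fdx1 fell by 0.55 ± 0.09 (adjusted p = 0.00144).

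Necab2, a neuronal calcium-binding protein gene, read 70.4, 77.9 and 65.6 in the controls and 46.3, 45 and 51.8 with EE at 24 h. At 48 h Necab2 read 92.5, 79.9 and 112 in the controls and 46, 46 and 47.9 with EE. The EE arrays sat on one narrow level while the 48 h controls were higher than those of 24 h. Necab2 fell by 0.54 ± 0.08 (adjusted p = 0.000377). Tnfrsf12a, the receptor of the cytokine TWEAK, read 107, 106 and 126 in the controls and 61.2, 66.7 and 77.5 with EE at 24 h. At 48 h Tnfrsf12a read 120, 91.0 and 82.8 against 66, 73.1 and 67.9. Its ranges were apart at both times, and it fell by 0.45 ± 0.07 (adjusted p = 0.000495).

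Nefl, the light neurofilament chain, read 283, 195 and 360 in the controls and 158, 126 and 131 with EE at 24 h. At 48 h Nefl read 208, 226 and 222 in the controls and 152, 139 and 127 with EE. The ranges did not overlap, and Nefl fell by 0.70 ± 0.12 (adjusted p = 0.00225), but its second probe set stood at −0.30 (adjusted p = 0.162). Axons of hypothalamic neurons reach the neural lobe, so markers of that lobe and of glia were read beside it. Of 7 tested markers, Nefl fell and 6 did not pass, with a median of −0.07. Myelin basic protein (Mbp) stood at −0.79 ± 0.42 (adjusted p = 0.57) and ranged from 77.3 to 492 over the 12 arrays. The summed intensity of the 5 markers with a value on every array ran from 1554 to 1694 in the controls and from 991 to 1368 with EE at 24 h, and from 1269 to 1660 and 1135 to 1350 at 48 h. Without Nefl and Mbp the remaining 3 markers summed to 919 to 1004 against 783 to 966 at 24 h, and to 894 to 948 against 891 to 950 at 48 h. The part of neural lobe content in the change of Nefl was not tested.

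Of the 21 called falls, 11 held when any of the 12 arrays was left out. Besides Fshb, Gnrhr, Plagl1, Nefl, Fdx1, Necab2 and Tnfrsf12a these were Hspa1a, an inducible heat shock protein (−0.38 ± 0.08, adjusted p = 0.0129), Pfkp, a phosphofructokinase of glycolysis (−0.37 ± 0.07, adjusted p = 0.00469), Qdpr, which regenerates tetrahydrobiopterin (−0.23 ± 0.05, adjusted p = 0.0125), and Ppp2r2b. Ppp2r2b, a regulatory subunit of protein phosphatase 2A, stood at −0.44 ± 0.08 (adjusted p = 0.00607), with EE array 43 at 247 above all 3 controls of 24 h (218 to 231). Its call was lost in the fit of 12 arrays with a single EE term. The remaining 10 called falls rested on particular arrays: each lost its call in at least 1 of the 12 fits that left out an array. Among them Slc3a1, a subunit of a cystine and dibasic amino acid transporter, fell by 0.70 ± 0.15 and held in 4 of the 12 fits. Crem, a cyclic AMP-responsive transcription factor, fell by 0.44 ± 0.09 and lost its call without EE array 69 and with blanks set to the 5th percentile of each array (adjusted p = 0.48). Aldh1a1, which oxidises retinaldehyde, fell by 0.47 ± 0.11, and Syt4, a synaptotagmin of secretory vesicles, fell by 0.33 ± 0.08, each holding in 3 of the 12. The others were Tesc, Usp2, Ass1, Gga2, Lurap1l and Dnajc5, between −0.45 and −0.20.

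On a mitosis list 3 of 14 tested genes rose, against 0.392% of all tested genes, and on a DNA replication list none of 15 did. Other called rises are described with them because they are known for cell division, a grouping made after the calls were seen and without a count of such genes among all tested. The 2 lists were themselves chosen with earlier results of these data known, so their counts are a description and no test. Top2a, the DNA topoisomerase that untangles chromosomes before mitosis, read 39.1, 36.4 and 36.4 in the controls and 64.8, 52.6 and 81.5 with EE at 24 h. At 48 h Top2a read 72.9, 51.5 and 56.1 in the controls and 104, 99.1 and 117 with EE. The EE arrays lay above the controls at both times, and the 48 h controls were themselves as high as some EE arrays of 24 h. Top2a rose by 0.55 ± 0.08 (1.47-fold, adjusted p = 9.85e-05), and its second probe set rose by 0.48. Pclaf, a partner of the replication clamp PCNA, read 70.6, 77 and 103 in the controls and 150, 133 and 158 with EE at 24 h. At 48 h Pclaf read 126, 117 and 118 in the controls and 182, 193 and 220 with EE. Pclaf rose by 0.62 ± 0.08 (1.54-fold, adjusted p = 9.85e-05), again with no overlap.

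Mki67, the proliferation antigen Ki-67, read 74.7, 62.1 and 57.1 in the controls and 97.3, 94.2 and 110 with EE at 24 h. At 48 h Mki67 read 107, 74.8 and 121 in the controls and 137, 143 and 161 with EE. Its ranges were apart at both times, and it rose by 0.46 ± 0.09 (adjusted p = 0.00469). Spc25, a kinetochore protein, read 47.8, 33.4 and 43.6 in the controls and 62.6, 57.9 and 70.5 with EE at 24 h. At 48 h Spc25 read 67, 63.6 and 60.8 in the controls and 99.4, 117 and 103 with EE. Spc25 likewise showed no overlap and rose by 0.46 ± 0.07 (adjusted p = 0.000756). These 4 genes held with any of the 12 arrays left out.

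Other rises of the same kind were smaller or rested on fewer arrays. Plk4, the kinase of centriole duplication, rose by 0.41 ± 0.09, and lost its call without control array 64 or EE array 46. Dscc1, which helps load the clamp for sister chromatid cohesion, rose by 0.33 ± 0.07 and lost its call only without control array 61. The mitotic cyclin Ccnb2 rose by 0.29 ± 0.07 (adjusted p = 0.0497), and Depdc1 by 0.33 ± 0.07. Both lost their call in most fits that left out an array, Ccnb2 also in the fit of 12 arrays with a single EE term (adjusted p = 0.0535), and Depdc1 was fitted without control array 42, where it was blank. The 3 rises on the mitosis list were Top2a, Mki67 and Ccnb2, none fell and 11 did not pass. The median of the list was 0.26, and 13 of its 14 genes were positive at both times, compared with 27.9% of all tested genes. Cks2 (0.41 ± 0.10, adjusted p = 0.0612), Racgap1 (0.39 ± 0.10, adjusted p = 0.0618) and Cdk1 (0.27 ± 0.08, adjusted p = 0.0885) came nearest to passing. Of the 15 replication genes 13 were positive at both times and the median was 0.14. The largest of them was Mcm4 (0.32, adjusted p = 0.24), a subunit of the replicative helicase. Of 9 tested G1 cyclins and inhibitors none passed, with a median of 0.05.

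The promoters of 6 of the cell division genes are shown because these members rose at the same times and because such genes are known to carry a CCAAT box and a cell cycle homology element. The 6 include genes with both motifs and genes with 1 of them. The sequences are RefSeq's on build GRCr8, from 250 bases before to 50 bases after the start, in the direction of the gene. Capitals mark CCAAT and TTTGAA, read on both strands (ATTGG and TTCAAA on the other).
Top2a, chr10:84473044-84473343, minus strand: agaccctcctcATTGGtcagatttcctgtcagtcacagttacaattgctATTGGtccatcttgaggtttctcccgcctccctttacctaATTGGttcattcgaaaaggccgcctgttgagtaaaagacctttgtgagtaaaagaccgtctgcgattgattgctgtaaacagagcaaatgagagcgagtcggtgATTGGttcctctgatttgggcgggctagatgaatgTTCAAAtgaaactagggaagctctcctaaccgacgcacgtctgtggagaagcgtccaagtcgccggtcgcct
Pclaf, chr8:75315467-75315766, plus strand: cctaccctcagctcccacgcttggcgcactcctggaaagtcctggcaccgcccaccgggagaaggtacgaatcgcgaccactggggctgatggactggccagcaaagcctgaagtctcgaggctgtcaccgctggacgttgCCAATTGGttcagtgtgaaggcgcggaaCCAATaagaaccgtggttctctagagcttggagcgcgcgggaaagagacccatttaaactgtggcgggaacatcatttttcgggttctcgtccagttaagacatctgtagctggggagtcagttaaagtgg
Spc25, chr3:74396669-74396968, minus strand: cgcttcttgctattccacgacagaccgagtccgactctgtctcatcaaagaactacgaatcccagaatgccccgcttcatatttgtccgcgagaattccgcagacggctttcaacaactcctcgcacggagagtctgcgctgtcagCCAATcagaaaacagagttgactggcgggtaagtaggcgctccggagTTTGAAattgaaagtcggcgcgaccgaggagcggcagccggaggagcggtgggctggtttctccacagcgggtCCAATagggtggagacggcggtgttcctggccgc
Mki67, chr1:199952544-199952843, minus strand: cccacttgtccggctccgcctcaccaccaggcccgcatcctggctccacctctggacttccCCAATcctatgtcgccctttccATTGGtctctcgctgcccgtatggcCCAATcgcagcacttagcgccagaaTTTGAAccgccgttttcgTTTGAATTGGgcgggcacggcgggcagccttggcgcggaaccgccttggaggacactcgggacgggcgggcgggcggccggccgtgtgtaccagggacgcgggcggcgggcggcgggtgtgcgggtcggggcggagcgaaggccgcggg
Plk4, chr2:125730230-125730529, plus strand: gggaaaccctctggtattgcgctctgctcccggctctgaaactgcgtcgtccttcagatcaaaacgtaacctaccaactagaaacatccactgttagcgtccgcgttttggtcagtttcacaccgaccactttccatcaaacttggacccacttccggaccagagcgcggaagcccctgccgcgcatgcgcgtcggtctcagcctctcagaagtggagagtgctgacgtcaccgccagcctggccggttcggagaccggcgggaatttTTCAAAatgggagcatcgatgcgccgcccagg
Ccnb2, chr8:79981609-79981908, minus strand: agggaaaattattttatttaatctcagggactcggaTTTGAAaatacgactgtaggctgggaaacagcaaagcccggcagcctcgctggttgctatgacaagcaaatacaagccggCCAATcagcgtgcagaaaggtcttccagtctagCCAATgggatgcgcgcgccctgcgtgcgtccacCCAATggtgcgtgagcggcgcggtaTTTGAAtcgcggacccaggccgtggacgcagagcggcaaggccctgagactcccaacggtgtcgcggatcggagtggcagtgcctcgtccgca

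Top2a carried 4 CCAAT matches and 1 TTTGAA match, Spc25 carried 2 and 1, Mki67 carried 4 and 2, and Ccnb2 carried 3 and 2. Pclaf carried 3 CCAAT matches and 0 TTTGAA matches, and Plk4 carried 0 and 1. In Mki67 a TTTGAA match overlaps an ATTGG match, and in Pclaf a CCAAT match overlaps an ATTGG match. Of the 26 called rises, 23 had a promoter in the RefSeq table, and 5 of these 23 genes held both motifs in one window: Ccnb2, Depdc1, Mki67, Spc25 and Top2a. None of the 19 called falls with a promoter held both. Among all 33469 promoters of 300 bases, 7.41% did. Counted whether or not the other motif was there, CCAAT was in 12 of the 23 and 6 of the 19 (37.5% of all), and TTTGAA in 8 of the 23 and 3 of the 19 (18.4% of all). The palindromic estrogen response element GGTCANNNTGACC was in none of the 23 and none of the 19, and in 0.0269% of all promoters. The gene counts take a match in any promoter of the gene, with 25 promoters for the 23 genes and 23 for the 19. The shares are over single promoters of all genes, tested here or not, so the 2 are not like for like. A match is a description of the letters in this window only.

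**Figure D2:**
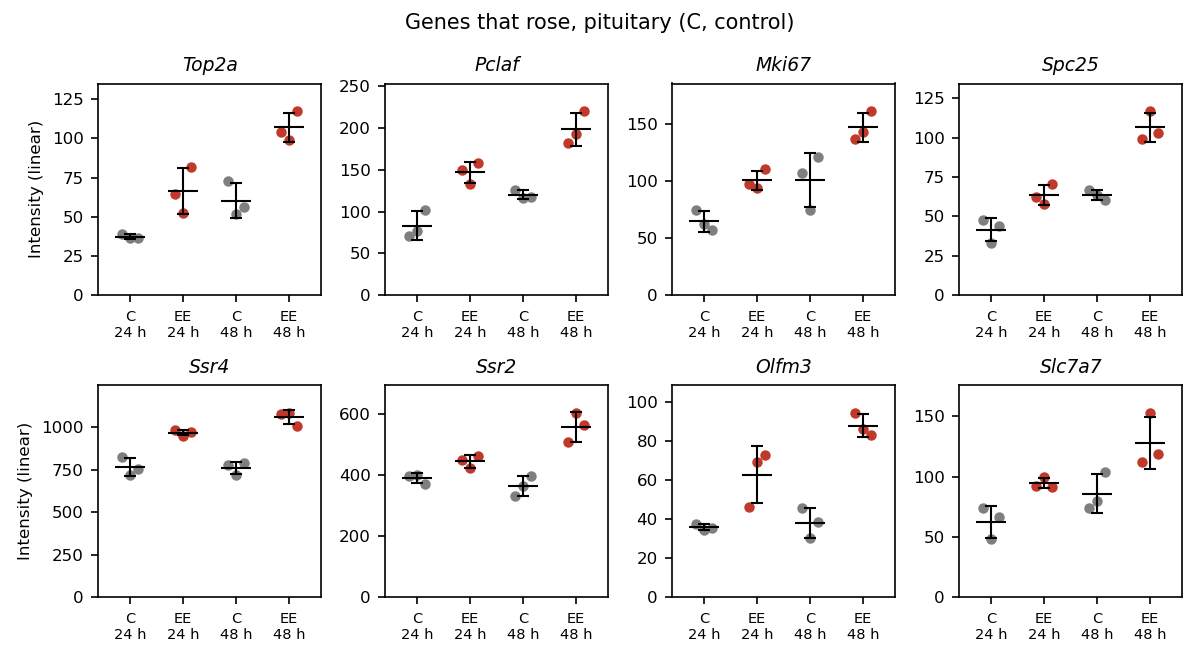
Linear intensity (y axis) of 8 genes that rose, on the 12 pituitary arrays by group (x axis: control, C, grey; EE, red, at 24 and 48 h); points are arrays, and black marks are the mean and SD of 3 arrays. Each gene has its 3 EE arrays above its 3 control arrays at both times, and the 48 h controls of Top2a (51.5 to 72.9) lie above those of 24 h (36.4 to 39.1).

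Ssr4, Ssr2, Fkbp11 and Nucb2 rose and are described together as genes of the secretory pathway, a grouping made after the calls were seen. Ssr4, a subunit of the translocon-associated protein complex at the endoplasmic reticulum, read 822, 716 and 754 in the controls and 983, 950 and 969 with EE at 24 h. At 48 h Ssr4 read 776, 716 and 786 in the controls and 1078, 1082 and 1009 with EE. The EE arrays were tightly grouped and above all controls, and Ssr4 rose by 0.40 ± 0.06 (adjusted p = 0.000377). Ssr2, another subunit of that complex, read 397, 400 and 372 in the controls and 449, 422 and 462 with EE at 24 h. At 48 h Ssr2 read 331, 363 and 397 against 506, 602 and 564. Its ranges were apart at both times, and it rose by 0.38 ± 0.06 (adjusted p = 0.000741). Fkbp11, a prolyl isomerase of the same compartment, rose by 0.45 ± 0.11 (adjusted p = 0.0429) but held in 3 of the 12 fits that left out an array and was lost in the fit of 12 arrays with a single EE term (adjusted p = 0.0611). Nucb2, the precursor of nesfatin, rose by 0.43 ± 0.09 (adjusted p = 0.0136) and lost its call without control array 40 or EE array 46.

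Of 28 tested chaperones and other folding genes of the endoplasmic reticulum none passed, and their median was 0.01. The subunits of the complex that were not called, Ssr1 (0.02, adjusted p = 0.98) and Ssr3 (0.14, adjusted p = 0.53), belonged to that list. Of 19 tested genes of the secretory granule, Syt4 fell, none rose and 18 did not pass, with a median of −0.08. Of these 19 genes 15 were negative at both times, compared with 28.1% of all tested genes. Chromogranin A (Chga, −0.47 ± 0.13, adjusted p = 0.0775), a core protein of the granules, and Rab27a (−0.37 ± 0.09, adjusted p = 0.0689), which tethers them, came near to passing.

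Olfm3, an olfactomedin-domain protein gene, had the highest of the called rises on the offset scale. It read 37.4, 34.5 and 35.2 in the controls and 46.2, 69 and 72.9 with EE at 24 h. At 48 h Olfm3 read 45.5, 30.3 and 38.4 in the controls and 94.1, 86.2 and 82.9 with EE. The groups did not overlap, the EE arrays of 48 h being the highest, and Olfm3 rose by 0.64 ± 0.09 (1.55-fold with the offset, adjusted p = 9.85e-05). Its readings are dim, so the offset understates this fold. Slc7a7, the light chain of a cationic amino acid exchanger, rose by 0.44 ± 0.08 (adjusted p = 0.00321), from 48.0 to 104 in the controls to 91.5 to 153 with EE, and the groups were apart within each time. Adora2b, an adenosine receptor coupled to cyclic AMP, rose by 0.45 ± 0.08 (adjusted p = 0.0052), from 35.2 to 48.2 in all 6 controls to 57.9 to 84.4 on all 6 EE arrays. Nudt7, a peroxisomal enzyme that cleaves coenzyme A, rose by 0.37 ± 0.07 (adjusted p = 0.00454), from 93.4 to 125 in the controls to 145 to 174 with EE. Ssr2, Ssr4, Olfm3, Slc7a7, Adora2b and Nudt7 held with any of the 12 arrays left out. The other called rises were Arxes1, Tfpi, Nme2, Rplp0, Capn1, Robo1, Vopp1, Dbp and Eef1b2, between 0.20 and 0.38, each of which lost its call in at least 1 such fit. Capn1, Vopp1, Dbp and Eef1b2 also lost it in the fit of 12 arrays with a single EE term and time as a block. Of the 47 calls, 37 were kept in that fit. Dbp, an output transcription factor of the circadian clock, was the 1 called gene of 12 tested on a clock list.

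The large hormone genes gave no call, and most tested genes known as pituitary targets of estrogen did not pass. Prl stood at 0.08 ± 0.10 (adjusted p = 0.893), Gh1 at −0.08 ± 0.08 (0.814) and Tshb at −0.04 ± 0.08 (0.925). Prl and Gh1 were at the top of the intensity scale, as was Cga. The dopamine receptor Drd2, through which prolactin secretion is restrained, stood at 0.02 ± 0.11 (below 0 without control array 40, control array 64 or EE array 71), and Pou1f1, the lineage factor of lactotrophs, somatotrophs and thyrotrophs, at 0.05 ± 0.09 (below 0 without EE array 46). Trhr, the receptor of thyrotropin-releasing hormone, read 208 to 269 in the controls and 261 to 356 with EE over both times, a difference of 0.35 ± 0.10 (adjusted p = 0.115). Ghrhr, the receptor of growth hormone-releasing hormone, stood at −0.33 ± 0.10 (adjusted p = 0.115). The progesterone receptor Pgr stood at 0.20 ± 0.07 (adjusted p = 0.199), and Igf1 at 0.39 ± 0.15 (adjusted p = 0.32). Of 11 tested genes on a list of estrogen-responsive pituitary genes, Gnrhr fell and the other 10 did not pass, with a median of 0.02, while 13 more on the array had too few values for the test. Of 10 tested receptors of releasing and inhibiting hormones, Gnrhr fell and 9 did not pass. None of the 12 tested genes of activin and inhibin signalling, which sets FSH synthesis, passed, and the follistatin genes Fst and Fstl3 and the activin subunit gene Inhba had too few values. Inhbb stood at −0.22 and Inha at −0.16. Esr1, Gal, Pttg1, Vip and Pomc had too few values for the test.

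Markers of other cells gave few calls. None passed among 5 tested markers of lactotrophs and somatotrophs, 4 of corticotrophs and melanotrophs, 5 of endothelium, 6 of macrophages, 1 of lymphocytes and 2 of blood cells. Of 4 tested thyrotroph markers Gata2 rose and 3 did not pass. The haemoglobin and Alas2 sum ran from 2344 to 5694 in the 24 h controls and from 4258 to 4647 with EE. Of 8 folliculostellate and stem cell markers Aldh1a1 fell, and Cdh1 stood at 0.53 ± 0.13 (adjusted p = 0.0535). None of 16 cholesterol synthesis genes, 20 ribosome biogenesis genes, 26 extracellular matrix genes or 14 immediate-early genes passed. Of 13 tested glycolysis genes, Pfkp fell and 12 did not pass, with a median of −0.05.

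S100g, which encodes the vitamin D- and estrogen-responsive calcium-binding protein calbindin-D9k, showed the most complete contrast but no testable difference. It had no value on any of the 6 control arrays. With EE it read 43.7, 40.7 and 89.5 at 24 h and 201, 419 and 158 at 48 h. At 4 h it read 85.0 to 98.9, at 8 h 135 to 213 and at 72 h 464 to 486 with EE, again with no value on any control. Thus all 15 EE pituitary arrays carried a value and no control array did. The median with EE was lowest at 24 h (43.7). No fold is given, because the labels do not say why a value is blank. With blanks set to the 5th percentile of each array, S100g stood at 1.48 (adjusted p = 2.02e-06).

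One-sided blanks were uncommon otherwise. At 24 h, 19 genes had values on all 3 EE arrays and no control, and 8 the reverse. At 48 h the counts were 28 and 7. Across both times only S100g and Akirin2 kept such a pattern, and Akirin2 read 71.4 to 118 on the 6 controls with no value under EE. Akirin2 values returned on 2 of 3 EE arrays at 72 h (72.9 and 96.8), so its blanks did not follow treatment at each time. Gal, the galanin precursor and a known estrogen target, read 48.8, 41.5 and 33.8 with EE at 24 h and had no control value there. At 48 h Gal read 44.9, 57.8 and 40.4 with EE and 38.7 and 36.4 on 2 controls. At 24 h the cell division genes Dlgap5 and Mcm5 also had values with EE and none in the controls (43.1 to 54.1 and 41.1 to 59). At 48 h Dlgap5 read 59.3 to 64.3 with EE and 44.5 and 47.9 on 2 controls. Mcm5 then read 48.7 to 63.6 with EE and 36.6 to 51.8 on 3 controls, which overlap. Spc24, a partner of Spc25, had values with EE and none in the controls at 48 h (65.8 to 74.2). S100g and the genes of this paragraph were picked after their values were seen.

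The effects at 24 and 48 h were then set against each other. At 24 h alone 7 of 6798 genes (0.103%) were called: Pclaf and Gata2 rose, and Fdx1, Gnrhr, Nefl, Plagl1 and Tnfrsf12a fell. At 48 h alone 20 of 6804 (0.294%) were called, 13 higher and 7 lower. Gnrhr, Plagl1 and Pclaf were called at both. Of the 47 genes called over both times, 7 were called at 24 h alone and 14 at 48 h alone, and 6 more (Anxa2, Cpsf6, Hist1h2af, Knstrn, Ppih and Rpl24) were called only at 48 h. All 47 had the same sign at both times, 33 were larger at 48 h, and 37 had no overlap between EE and control at either time. Of all 6634 tested genes, 27.9% were positive and 28.1% negative at both times, and 169 (2.55%) were separate the same way at both. The call used the mean of both effects, so equal sign and separation are largely set by it. The number called at 24 h alone fell to between 0 and 4 when any 1 of its 6 arrays was left out. At 48 h it fell to 9 without control array 64 or EE array 69, to 11 without control array 66 and to 13 without EE array 68. The number over both times fell to 27 without EE array 46 or EE array 69.

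No gene passed the test of a difference between the times. The test of 48 h minus 24 h called 0 of 6634 genes (0%, limma), and 286 had an unadjusted p under 0.05. Among the 47, Ssr2 had the lowest unadjusted p for this difference (0.00248), with an effect of 0.18 ± 0.08 at 24 h and 0.58 ± 0.08 at 48 h. Gnrhr stood at −0.86 ± 0.17 and −1.22 ± 0.17, and Fshb at −1.68 ± 0.43 and −1.59 ± 0.43.

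**Figure D3:**
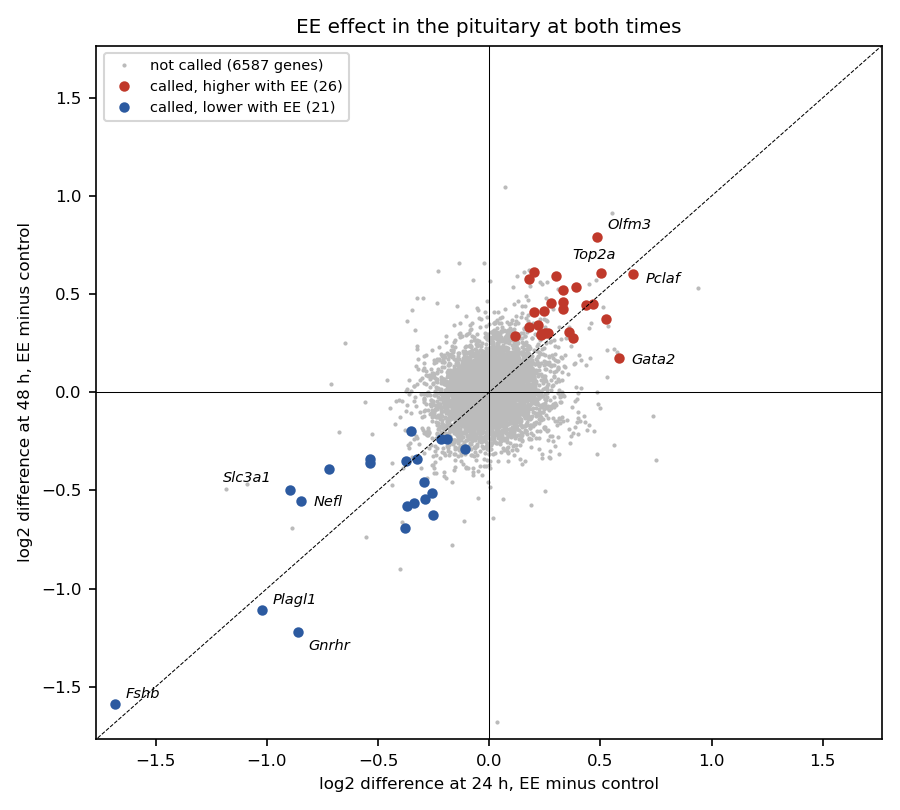
Log2 difference, EE minus control, at 24 h (x axis) and at 48 h (y axis) for the 6634 tested pituitary genes, one point per gene; red and blue points are the 26 called rises and 21 called falls over both times, and the dashed line is equality. All called genes lie in the quadrants of equal sign, with Fshb, Plagl1 and Gnrhr farthest from 0.

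The early effect of EE differed for some of these genes. Set against the mean effect at 4 and 8 h, 90 of 6422 genes (1.4%) differed, 42 higher and 48 lower at the later times. With arrays centred on their median the split was 44 and 31, and with quantile normalization 46 and 28. Of the 46 called genes that could be tested, 16 were among the 90. These genes were called on the same 24 and 48 h arrays, which raises that count, so it cannot be read against the 1.4%. Gnrhr turned: its effect was −0.12 ± 0.17 at 4 h and 0.53 ± 0.17 at 8 h, against the fall at 24 and 48 h, a difference of −1.24 ± 0.17 (adjusted p = 0.000155). At 8 h Gnrhr read 428 to 495 in the controls and 583 to 725 with EE. Those controls were the lowest of all times, and the EE readings of 8 h lay inside the control range of 4 h (513 to 804). The effect at 8 h alone was not tested. Fshb stood at −0.14 ± 0.43 and 0.34 ± 0.43 at 4 and 8 h, and its difference was −1.73 ± 0.43 (adjusted p = 0.0396). Its controls ranged from 181 to 1280 at 4 h. Plagl1 was already lower at 8 h (−1.08 ± 0.19) but stood at 0.24 ± 0.19 at 4 h.

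Ass1, the argininosuccinate synthase of arginine recycling, changed most between early and late. With EE it read 345 to 391 at 4 h and 225 to 281 at 8 h, against 74.5 to 109 and 95.7 to 107 in the controls. At 24 and 48 h it read 44.7 to 67.7 with EE and 62.9 to 89.4 in the controls. Its effect went from 1.75 ± 0.11 at 4 h to −0.36 ± 0.08 over 24 and 48 h, a difference of −1.80 ± 0.11 (adjusted p = 3.98e-11). Pou1f1 moved in the opposite sense: its effect was −1.09 ± 0.13 at 4 h and −0.59 ± 0.13 at 8 h, a difference of 0.89 ± 0.13 (adjusted p = 0.000177). At 4 h Pou1f1 read 175 to 276 with EE against 469 to 510 in the controls. Top2a (difference 0.69), Pclaf (0.70), Spc25 (0.55) and Mki67 (0.55) also differed from 4 and 8 h, where none of the 4 rose by more than 0.17. Early readings went both ways. At 8 h Mki67 read 68.1 to 82.3 in the controls and 55.6 to 63.2 with EE, and Pclaf 87.4 to 98.4 and 89.6 to 125. An early fall is thus part of the difference for Mki67. The number of differing genes fell to 46 without EE array 71 of 48 h, to 54 without control array 42 of 24 h and to 56 without control array 16 of 4 h.

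At 72 h the genes called over 24 and 48 h all kept their sign, 26 of 26 rises and 21 of 21 falls. Their agreement of sign at 4 h was 13 of 26 rises and 17 of 21 falls, and at 8 h 15 of 25 and 16 of 21. The share of all tested genes that kept their sign was not counted, so these counts have no background beside them. Gnrhr was lowest at 72 h (−1.57 ± 0.17, from 939 to 1019 in the controls to 292 to 332 with EE), whereas Fshb stood at −0.92 ± 0.43, with controls of 347 to 977. Olfm3 (1.09 ± 0.12), Ssr2 (0.70 ± 0.08) and Ssr4 (0.63 ± 0.08) had their highest values there. The effect over 24 and 48 h differed from that at 72 h in 1 of 6452 genes (0.0155%), Fos, the immediate-early transcription factor. Fos read 206 to 421 in the controls and 29.3 to 88.3 with EE at 72 h, and its effect was 0.73 ± 0.27 over 24 and 48 h (adjusted p = 0.265) and −2.07 ± 0.38 at 72 h. That count fell to 0 without control array 76, EE array 82 or EE array 83, all of 72 h, and was 5 without control array 75 and 2 without EE array 69.

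**Figure D4:**
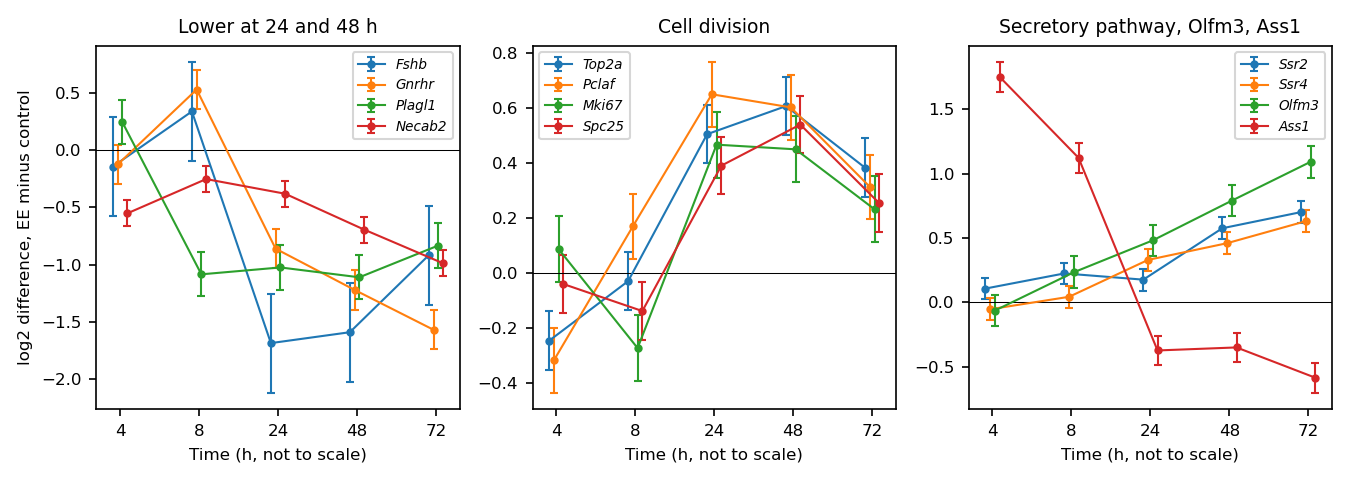
Log2 difference, EE minus control (y axis), of 12 genes in the pituitary at 4, 8, 24, 48 and 72 h (x axis, evenly spaced and not to scale); bars are standard errors, with 3 arrays per group. Gnrhr goes from 0.53 at 8 h to −1.57 at 72 h, the 4 cell division genes are highest at 24 or 48 h, and Ass1 goes from 1.75 at 4 h to below 0 from 24 h on.

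The pituitary response was next set beside that of the uterus at the same times, the tissue the assay is read on. The effects differed between the tissues in 3180 of 6034 genes (52.7%), so a difference between tissues was the common case. Of the 37 called pituitary genes that could be tested in both, 31 differed. They were called on the same pituitary arrays, which raises that count, so it cannot be read against the 52.7%. Cell division genes rose much more in the uterus: Top2a by 1.95 ± 0.08, Pclaf by 2.21 ± 0.09 and Mki67 by 1.88 ± 0.09. The differences, pituitary minus uterus, were −1.40, −1.59 and −1.42. Genes also went opposite ways. Gata2 stood at −0.87 ± 0.07 in the uterus against its rise in the pituitary (difference 1.25, adjusted p = 1.56e-10). Ass1 stood at 1.61 ± 0.12 in the uterus against its fall in the pituitary (difference −1.98, adjusted p = 5.4e-10), and Pfkp at 0.53 ± 0.05 against −0.37 (difference −0.91, adjusted p = 6.58e-11). Ssr4 was higher with EE in both, by 1.02 ± 0.04 in the uterus. S100g, without control values in the pituitary, had an effect of 3.50 ± 0.13 in the uterus. Of the called pituitary genes measured in the uterus, 15 of 24 rises and 8 of 13 falls had the same sign there. The share of equal sign over all tested genes was not counted. Fshb, Gnrhr, Nefl and Olfm3 had too few uterus values. The largest differences by adjusted p were in genes that the pituitary did not call, such as Enpp2 (−2.15 in the uterus, −0.01 in the pituitary) and Spon1 (2.13 and 0.06).

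**Figure D5:**
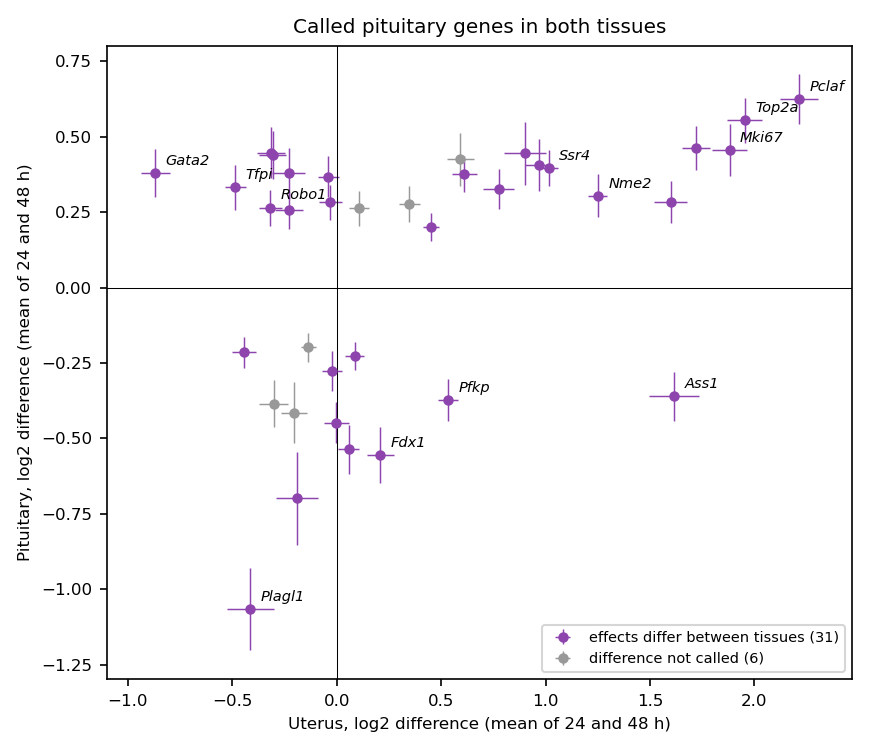
Mean log2 difference over 24 and 48 h, EE minus control, in the uterus (x axis) and in the pituitary (y axis) for the 37 called pituitary genes tested in both tissues; bars are standard errors, and purple marks the 31 whose effects differ between tissues. Top2a, Pclaf and Mki67 lie at 1.88 to 2.21 in the uterus and at 0.46 to 0.62 in the pituitary, and Gata2, Pfkp and Ass1 lie on opposite sides of 0.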

How the data were processed

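The authors deposited 1 table of linear array intensity values for 15923 probe sets of the Affymetrix RAE230A array, from 5 µg of total RNA per the labels' protocols. Neither the labels nor the table say how arrays were scaled or why 38.6% of pituitary values are blank. Of the probe sets, 12783 name a single gene. The probe set with the highest mean was kept for each of 10411 genes. The intensity was taken as log2(value + 30.4), the offset being the 10th percentile of all values. Group means were fitted over 30 pituitary arrays (12 pituitary and 20 uterus arrays for the tissue comparison), leaving blanks out, with variances moderated in limma 3.58.1 (R 4.3.3) and Benjamini-Hochberg adjustment. A gene needed at least 2 of 3 values in each pituitary group and 3 of 5 in each uterus group. Data for the mean effect were simulated with independent normal noise in 6419 genes, of which 100 changed by 0.5 and 99 by 1. Of these log2 changes, 93% and 99% were recovered, with 11 false calls. More genes were changed there than were called here, which eases the adjusted threshold, so the rates do not carry over to uncalled genes.

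Genes were named by a fixed rule: the 12 largest non-overlapping rises and falls above the median intensity, 5 per time, up to 4 called genes of each list, 6 of each difference, and a list of hormone and receptor genes. The remaining called genes were named after their values were seen. The members and lists were chosen with earlier results of these data known. Lists are described by counts and medians, without a test. Alternatives were another offset, scaling, treatment of blanks, probe set, filter, set of arrays or block, and each array left out.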

Additional observations from a re-analysis of the deposited data

Results flagged for a closer look

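Results below differed between times or tissues by the test of the difference itself (limma, adjusted p under 0.05); each value is a difference of log2 EE effects. The mean of 24 and 48 h minus the mean of 4 and 8 h was negative for Ass1 (−1.80), Fshb (−1.73), Gnrhr (−1.24), Slc3a1 (−0.98), Pdlim3 (−0.94), Hif1a (−0.69) and Qdpr (−0.25). It was positive for Pou1f1 (0.89), Pclaf (0.70), Top2a (0.69), Dbp (0.63), Gata2 (0.57), Spc25 (0.55), Mki67 (0.55), Olfm3 (0.55), Tfpi (0.43), Ccnb2 (0.40), Ssr4 (0.40) and Robo1 (0.40). Hif1a, the oxygen-sensitive transcription factor, had an effect of 0.87 ± 0.09 at 4 h and 0.10 ± 0.07 over 24 and 48 h. Pdlim3, an actin-associated protein gene, had 1.21 ± 0.13 at 8 h and 0.15 ± 0.09 later. Against 72 h, Fos differed by 2.80.

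The mean effect of 24 and 48 h, pituitary minus uterus, was positive for Enpp2 (2.13), Gata2 (1.25), Tfpi (0.82), Slc7a7 (0.75), Arxes1 (0.61), Dbp (0.48), Nudt7 (0.41) and Rplp0 (0.31). It was negative for Spon1 (−2.07), Krt8 (−2.04), Ass1 (−1.98), Prxl2a (−1.79), Cdk1 (−1.74), Pclaf (−1.59), Mki67 (−1.42), Top2a (−1.40), Psmb10 (−1.38), Ccnb2 (−1.31) and Spc25 (−1.26). Smaller negative differences were those of Nme2 (−0.95), Pfkp (−0.91), Fdx1 (−0.76), Plagl1 (−0.65), Ssr4 (−0.62), Tnfrsf12a (−0.45), Qdpr (−0.32), Gga2 (−0.25) and Ssr2 (−0.23). Groups of 3 arrays are too small for a search for single outlying arrays.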

How the results depend on the processing

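No called effect reversed. Of the uncalled effects, Drd2 (0.02) turned to −0.06, −0.0076 and −0.02 without control array 40, control array 64 and EE array 71, and Pou1f1 (0.05) to −0.02 without EE array 46. With 1 array left out, the number of genes called ran from 27 to 43 over both times, 0 to 4 at 24 h, 9 to 18 at 48 h, 0 to 1 for 48 h minus 24 h, 46 to 92 against 4 and 8 h, 0 to 5 against 72 h and 3019 to 3216 for pituitary minus uterus. Blanks set to the 5th percentile gave 4 at 24 h, 35 at 48 h, 3 for 48 h minus 24 h and 4 against 72 h. With 12 arrays in the fit 3 were called at 24 h. Without an offset 0 were called against 72 h. Single effects were followed for 58 genes, the 47 called ones and some uncalled ones. They stayed the same in 1022 checks, lost the call in 233 and gained it in 2. An uncalled gene that stayed uncalled counts as the same. Of the losses, 180 came with 1 array left out, and 21 of the 47 called genes held with any array left out. With title numbers shared by both tissues as a replicate block, 3206 genes differed between tissues (1856 higher, 1350 lower). The deviations of 10 shared numbers correlated at −0.045 to 0.155, with 3 over 0.1, so the numbers were not taken as pairs. Within the pituitary EE and control share no number. The number of arrays (3 a group) and dim signal limit the precision, and genes blank in a group were not tested.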

Other observations

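With blanks set to the 5th percentile of each array, 12 genes passed that had not been called over 24 and 48 h, and all but Kcnj3 had been left untested for blanks. S100g rose by 1.48, and Cd44, a hyaluronan receptor, by 0.99. The cell division genes Dlgap5 (0.49), Knstrn (0.38) and Mcm5 (0.37) also rose, as did the kainate receptor subunit Grik1 (0.52), the nucleoside transporter Slc29a1 (0.53) and the endopeptidase Ecel1 (0.47). Fads2, a fatty acid desaturase, fell by 0.50, and Akirin2 by 1.24. These values depend on the level put in place of a blank and are no measured folds.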
